A study of Mus musculus with 2 samples.

Results

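Aquaporins are membrane channels, built as tetramers, that let water cross cell membranes along an osmotic gradient, and the aquaglyceroporins among them also pass glycerol. Several members pass hydrogen peroxide as well. In the eye, Aqp5 is known as a water channel of the corneal epithelium, Aqp3 as one of basal epithelial cells of the ocular surface, and Aqp1 as one of the keratocytes and the endothelium of the cornea. The genes described here are the 8 mouse aquaporins Aqp1, Aqp3, Aqp4, Aqp5, Aqp7, Aqp8, Aqp9 and Aqp11. They were taken by their gene symbol in the array's annotation, out of 30697 genes that have an array row of their own. The choice of these 8 was made with earlier results of these data known. Each of the 8 had 1 row.

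The injured sample was corneal epithelium of C57BL/6 mice, both sexes, at 8 weeks of age. Its epithelium had been scraped away in full thickness as far as the limbus with a 0.5 mm rust ring remover. Tissue was taken after some 48 hours of healing, with 10% of the wound still unclosed. The uninjured sample was epithelium from the unwounded fellow eyes, collected at that same time, so it comes from wounded animals too. All mice had been anaesthetised with ketamine at 87 mg/kg together with xylazine, for which the dose was 13 mg/kg. There was 1 array per group. The labels do not say how many mice each represents.

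Values are the authors' log2 intensities, and each difference is injured minus uninjured on that log2 scale. A gene counted as measured when its brighter value reached 5.44, which is the table-wide median of the log2 intensities, and 19512 genes did. A measured gene was called higher or lower when the arrays differed by at least 1 on the log2 scale, which is 2-fold. With 1 array per group no test was possible, and the differences have no replicate check and no p-value. The one error these data can show is the disagreement between different rows of the same gene, with an SD of 0.244 in the log2 difference over 542 rows of 256 genes. That SD covers probes on the same arrays and not the spread between animals. The keratin Krt12, which defines the corneal epithelium, had a log2 intensity of 10.85 in injured and 14.07 in uninjured epithelium, so the labelled tissue is present in both.

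Of the 8 aquaporins 6 were measured, and 1 of those 6, Aqp5, was called, in the direction of lower. Among all measured genes 3.92% were called lower, 4.14% higher and 8.06% in either direction, so 1 call among 6 members is a small number to set against this background. None of the 6 was called higher. Aqp9 and Aqp11 stayed under the low-signal level in both arrays. The median difference of the 6 measured members was 0.03, beside 0.06 for all measured genes. Members lay on both sides of 0, and 4 of the 6 were within 1 log2 unit of the low-signal level, so this median says little about the group.

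**Figure D1:**
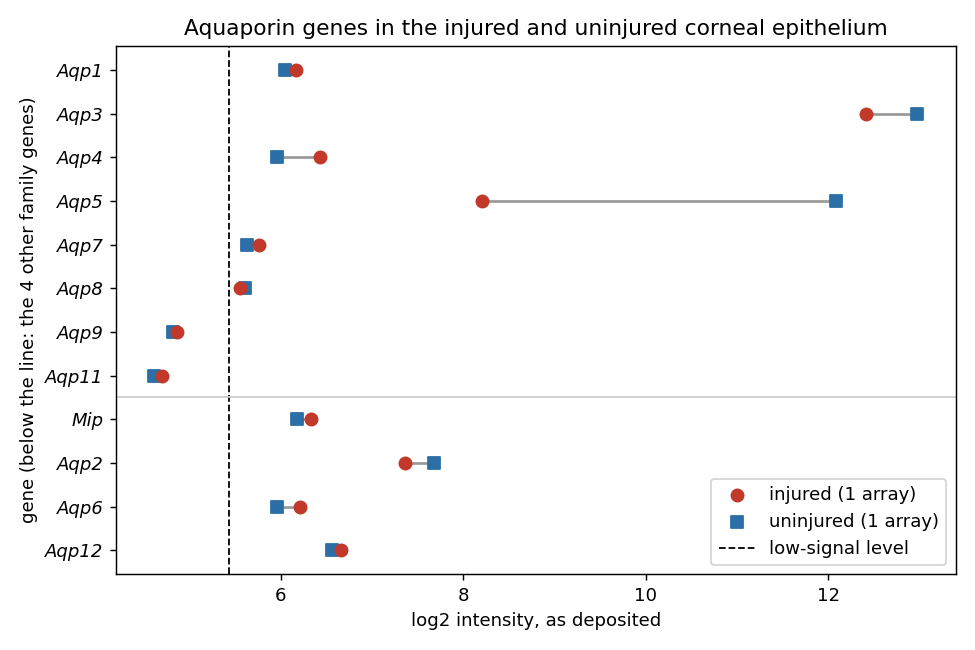
Log2 intensity (horizontal axis) of the 8 aquaporin members and the 4 other family genes (rows) in the injured array (circles) and the uninjured array (squares), 1 array each, with the low-signal level of 5.44 dashed. Aqp5 is the gene whose 2 points lie far apart, 8.21 injured and 12.08 uninjured, and Aqp3 is far above the low-signal level in both arrays, at 12.41 and 12.97.

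Aqp5, a water-selective channel of corneal epithelium, lacrimal and salivary gland and lung, had a log2 intensity of 8.21 in the injured epithelium, against 12.08 in the uninjured epithelium. The difference of -3.87 means a signal 14.7-fold lower in the injured epithelium. Only 24 of the 19512 measured genes had a more negative difference. The injured value still lay 2.77 above the low-signal level, so the size of this difference does not rest on a dim value. Since the tissue was measured in bulk, fewer cells that make Aqp5 RNA and less Aqp5 RNA per cell cannot be told apart here.

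Aqp3, an aquaglyceroporin that passes water, glycerol and hydrogen peroxide, had a log2 intensity of 12.41 in the injured epithelium and 12.97 in the uninjured epithelium. The difference of -0.56, a 1.48-fold lower signal, missed the 2-fold threshold. It is larger than the SD between rows of a gene, which carries no animal-to-animal variation. The difference of Aqp5 was more negative than that of Aqp3 by 3.31 on the log2 scale, so the ratio of the 2 channels' signals was not the same in both epithelia.

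**Figure D2:**
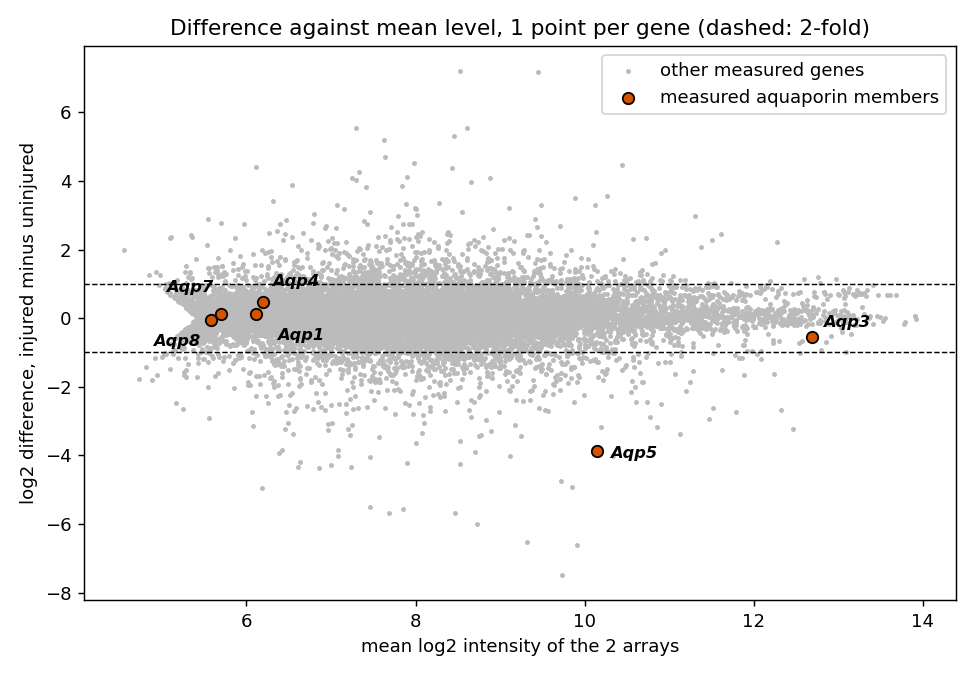
Log2 difference, injured minus uninjured (vertical axis), against the mean log2 intensity of both arrays (horizontal axis) for 19512 measured genes, with the 6 measured aquaporins named and the 2-fold limits dashed. Aqp5 lies at -3.87, below nearly all other genes, while Aqp1, Aqp3, Aqp4, Aqp7 and Aqp8 lie between the dashed lines.

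The promoter windows of Aqp5 and Aqp3 are shown because these are the 2 members with signal far above the low-signal level and with unequal differences. The windows come from RefSeq on build GRCm38.p6 and run from 250 bases before to 50 bases after the annotated start, 5′ to 3′ on the gene's strand. Capitals mark matches to the TATA box (TATAAA) and to the E-box (CACGTG). The Aqp5 window is chr15:99590778-99591077 on the + strand and the Aqp3 window is chr4:41098134-41098433 on the - strand.
Aqp5: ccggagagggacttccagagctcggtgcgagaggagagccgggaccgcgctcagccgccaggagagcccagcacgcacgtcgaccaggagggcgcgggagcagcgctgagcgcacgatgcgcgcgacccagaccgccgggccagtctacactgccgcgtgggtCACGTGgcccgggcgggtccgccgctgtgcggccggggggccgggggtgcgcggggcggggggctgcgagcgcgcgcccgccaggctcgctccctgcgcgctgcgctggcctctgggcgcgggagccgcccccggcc
Aqp3: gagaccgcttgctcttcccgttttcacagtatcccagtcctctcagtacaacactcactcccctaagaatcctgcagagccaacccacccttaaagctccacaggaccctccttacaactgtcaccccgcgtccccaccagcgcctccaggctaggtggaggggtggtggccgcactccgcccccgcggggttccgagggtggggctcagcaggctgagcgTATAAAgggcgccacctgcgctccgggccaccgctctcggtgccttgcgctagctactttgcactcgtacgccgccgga

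The Aqp5 window had no TATAAA on either strand and 1 CACGTG, and the Aqp3 window had 1 TATAAA, beginning 29 bases before the annotated start, and no CACGTG. Of 32851 windows of this length in the RefSeq table, 13.6% held TATAAA and 7.15% held CACGTG on either strand. Of 11 aquaporin family genes with a window, 4 held CACGTG, namely Aqp2, Aqp5, Aqp6 and Aqp8, and Aqp5 alone of these was called. TATAAA was held by 2 of the 11, Aqp3 and Mip, and neither was called. G and C made up 79.7% of the Aqp5 window and 64.0% of the Aqp3 window, against a median of 52.7% over all windows. The Aqp5 window held 46 CpG dinucleotides, a count that 1.65% of windows reach, and the Aqp3 window held 21, which 24.8% reach. GGGCGG, the GC box, was matched 3 times in the Aqp5 window and 1 time in the Aqp3 window, and 35.7% of all windows held it. CACCC was matched 1 time in the Aqp5 window and 4 times in the Aqp3 window, and 57.5% of windows held it. TGANTCA, the AP-1 site, was in neither window and in 7.81% of all windows. Each motif was searched on both strands, and CACCC and GGGCGG were counted without regard to other motifs. A match describes letters in a window and nothing was measured at these promoters.

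The other water-selective members had weak signal in both arrays. Aqp1, the channel of keratocytes, corneal endothelium, capillaries and red blood cells, had a log2 intensity of 6.17 in injured and 6.05 in uninjured epithelium, a difference of 0.11. Aqp4, the channel of astrocytes and retinal Müller glia, had 6.43 in injured and 5.96 in uninjured epithelium. Its difference of 0.47, a 1.38-fold higher signal, was the most positive of the 8 members and was not called. The Aqp4 row carries 2 gene identifiers in the array's annotation, of which the second is not in the RefSeq table, so what else may feed its signal is not known.

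The remaining aquaglyceroporins showed no call. Aqp7, known for glycerol release from fat cells, had a log2 intensity of 5.76 in injured and 5.63 in uninjured epithelium, a difference of 0.13. Aqp9, a channel of hepatocytes and leukocytes, had 4.86 in injured and 4.82 in uninjured epithelium, both under the low-signal level. At such values neither presence nor a change can be read.

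Aqp8, which passes water, ammonia and hydrogen peroxide, had a log2 intensity of 5.55 in injured and 5.61 in uninjured epithelium, a difference of -0.06. Aqp11, an intracellular member with an unusual pore motif, had 4.70 in injured and 4.61 in uninjured epithelium, again under the low-signal level. Of the 8 members, 6 lay within 1 log2 unit of that level in both arrays, and these are all but Aqp3 and Aqp5. Their differences ran between -0.06 and 0.47, and 5 of these 6, all but Aqp4, were smaller than the SD between rows of a gene.

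The family genes outside the 8 members were not called either. Aqp2, the vasopressin-regulated channel of the kidney collecting duct, had a log2 intensity of 7.36 in injured and 7.68 in uninjured epithelium, a difference of -0.32. Aqp6, an intracellular channel of the kidney that passes anions, had 6.21 in injured and 5.96 in uninjured epithelium, a difference of 0.25. Aqp12, a pancreatic member, had 6.67 in injured and 6.57 in uninjured epithelium. Mip, the lens fibre aquaporin, had 6.33 in injured and 6.18 in uninjured epithelium. Over these 4 genes and the 8 members together, 9 of 10 measured genes were less than 2-fold apart. With 8.06% of all measured genes called in either direction, this count is near the background.

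Aqp2, Aqp5 and Aqp6 stand next to each other in the RefSeq gene order with no annotated gene between them. Aqp2 on one side of Aqp5 had a difference of -0.32 and Aqp6 on the other side one of 0.25. The next named genes outward were the pseudogene Gm5808 at 0.22, and Racgap1, a regulator of cell division, at 0.74, with a log2 intensity of 8.71 in injured and 7.96 in uninjured epithelium. Of the 10 named genes nearest to Aqp5, 5 on each side, none was called, and with 8.06% of all measured genes called a count of 0 among 10 is near the background.

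**Figure D3:**
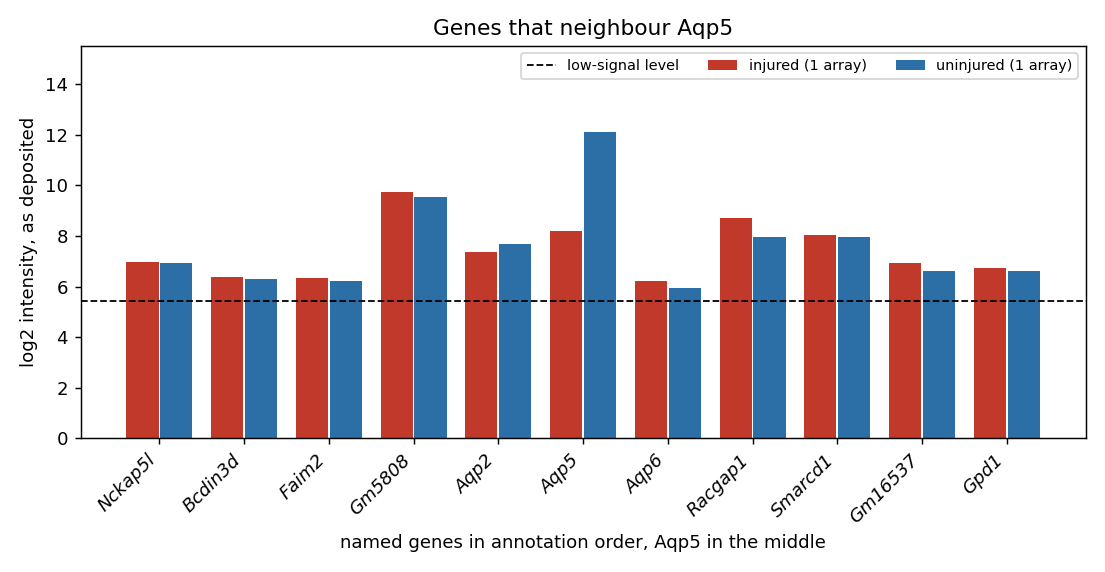
Log2 intensity (vertical axis) of Aqp5 and the 5 named genes on either side of it in annotation order (horizontal axis), in the injured array (left bar of each pair) and the uninjured array (right bar). Aqp5 at 8.21 and 12.08 is the gene with a large gap, and its family neighbours Aqp2 and Aqp6 differ by -0.32 and 0.25.

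The 3 genes whose pair of values lay closest to that of Aqp5 were sought among 19511 other measured genes, by Euclidean distance over the 2 log2 intensities. The closest was Cdo1, the cysteine dioxygenase, with a log2 intensity of 8.33 in injured and 12.34 in uninjured epithelium, at a distance of 0.28. The second was Stk35, a serine/threonine kinase gene, with 8.61 in injured and 11.77 in uninjured epithelium, at a distance of 0.51. The third was Erich5, with 7.39 in injured and 12.32 in uninjured epithelium, at a distance of 0.85. With 2 values per gene, closeness says no more than that both numbers are alike.

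Most markers of the corneal epithelium were also lower. Of 7 markers 5 were called lower and 1, Krt14, a keratin of basal cells, higher. Among all measured genes 3.92% were called lower and 4.14% higher. The markers were chosen with earlier results of these data known, so this count is not independent of the values. Lypd2 had a log2 intensity of 5.99 in injured and 13.48 in uninjured epithelium, and Slurp1, a secreted Ly6-type protein, had 6.61 in injured and 13.22 in uninjured epithelium. Krt12 differed by -3.22, the crystallin Aldh3a1 by -2.68 and the eye transcription factor Pax6 by -1.32, whereas Krt5, a keratin of stratified epithelia, differed by -0.16 and Krt14 by 2.23. The summed linear signal of the 7 markers was 28576.4 in injured and 69778.7 in uninjured epithelium, a log2 difference of -1.29. The difference of Aqp5 was thus larger than that of Krt12 and smaller than those of Lypd2 and Slurp1, and the difference of Aqp3 lay closer to that of Krt5. The part of these markers in the Aqp5 result was not tested.

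**Figure D4:**
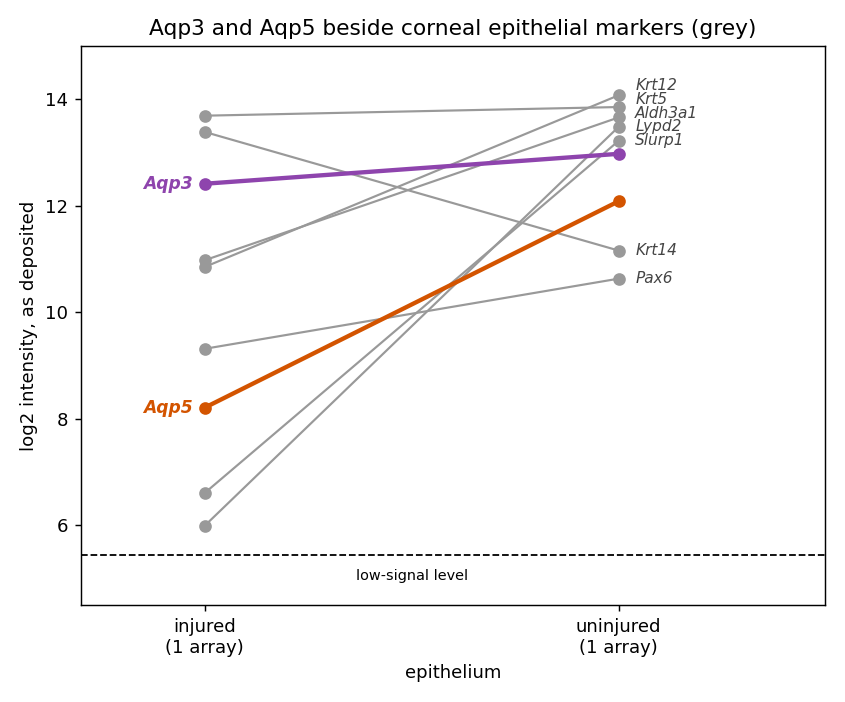
Log2 intensity (vertical axis) of Aqp3, Aqp5 and the 7 corneal epithelial markers in the injured array (left) and the uninjured array (right), 1 line per gene. The line of Aqp5 is steeper than that of Krt12 and less steep than those of Lypd2 and Slurp1. Krt5, with a difference of -0.16, is nearly level, Aqp3, with -0.56, slopes more than Krt5, and Krt14 runs the other way.

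Conjunctival epithelium also carries aquaporins, so its markers are given beside the result. Of 8 conjunctival and goblet cell markers 3 were called higher, the keratins Krt8 (1.52), Krt7 (1.34) and Krt19 (1.11), and 1 lower, the goblet mucin Muc5ac (-1.26). Among all measured genes 4.14% were called higher and 3.92% lower. These markers too were chosen with earlier results of these data known, so this count is not independent of the values. The summed linear signal of the 8 markers was 13330.5 in injured and 10697.3 in uninjured epithelium, a log2 difference of 0.32. Krt13 and Krt4, keratins of moist stratified epithelia, differed by -0.29 and 0.14. The remaining markers, Spdef and Agr2, differed by 0.07 and 0.29 and were not called. Muc5ac had 5.81 in injured epithelium, 0.38 above the low-signal level, and 7.07 in uninjured epithelium. The part of these 8 markers in the aquaporin values was not tested.

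Markers of the cells known for the weak members were looked up too. Among all measured genes 8.06% were called in either direction, and 1 call or none in lists this short says little beside that share. For Aqp1, the keratocyte markers Kera (3.52 injured, 3.55 uninjured) and Lum (3.99 injured, 4.31 uninjured) lay under the low-signal level, and 5 of 7 keratocyte markers were measured, with Dcn called lower. It had 4.77, under the low-signal level, in injured epithelium and 6.09 in uninjured epithelium, so the size of that difference is uncertain. The other measured keratocyte markers were not called. Col1a1 had 7.18 in injured and 7.29 in uninjured epithelium, and Col1a2 had 6.53 in injured and 6.66 in uninjured epithelium. Ptgds had 6.66 in injured and 6.46 in uninjured epithelium, and Angptl7 had 5.49 in injured and 5.44 in uninjured epithelium. Of 5 vascular endothelial markers 2 were measured, and none was called. Of 4 corneal endothelial markers 3 were measured, with the collagen Col8a1 called higher. It had 6.35 in injured epithelium and 4.95, under the low-signal level, in uninjured epithelium, so here too the size is uncertain. Slc4a11 had 8.34 in injured and 7.93 in uninjured epithelium, and Col8a2 had 6.78 in injured and 6.72 in uninjured epithelium. Neither Slc4a11 nor Col8a2 was called. Of 7 red blood cell markers 2 were measured and 4 haemoglobin genes were found only on rows shared by several genes. For Aqp7, the fat cell hormone Adipoq (3.92 injured, 3.98 uninjured) was under the low-signal level, and none of the 3 measured adipocyte markers was called. For Aqp9, 7 of 10 neutrophil and 5 of 6 macrophage markers were measured. Of the neutrophil markers S100a9 was called higher at 1.89, and the median of the 7 was 0.14. Of the macrophage markers Itgam was called lower at -1.55, while Cd14 (0.94), Lyz2 (0.87), Cd68 (0.20) and Csf1r (0.18) were positive and not called, and the median of the 5 was 0.20. None of the measured markers of retinal glia (3 of 4) or lens fibres (4 of 6) was called. Of the glial markers, the glutamate transporter Slc1a3 differed by 0.77, Gfap by 0.13 and Rlbp1 by -0.09. Slc1a3 had 6.38 in injured and 5.61 in uninjured epithelium, both within 1 log2 unit of the low-signal level. The part of any of these cells in the aquaporin values was not tested.

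Genes that work with aquaporins were followed in 5 lists of 94 different genes, of which 75 were measured. Of these 75 genes 10 were called higher and 7 lower, which is 22.7%, beside 8.06% of all measured genes. The share of all genes called rises with signal. With the filter at the 75th percentile of the table it was 11.9%, and 17 of 62 list genes were called. The lists mix ion channels, enzymes and transporters and were chosen with earlier results of these data known.

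Glycerol handling, which supplies or uses what the aquaglyceroporins carry, was the first list. Of 21 measured genes 3 were called lower and none higher, beside 3.92% lower and 4.14% higher of all measured genes, with a median difference of -0.16. Mgll, the lipase that frees glycerol from monoglycerides, had a log2 intensity of 6.83 in injured and 8.71 in uninjured epithelium, a difference of -1.88. Gpd1l, which is related to glycerol-3-phosphate dehydrogenase, differed by -1.50, and the phosphatidate phosphatase Lpin2 by -1.12. The mitochondrial glycerol-3-phosphate dehydrogenase Gpd2 differed by 0.56 and was not called. Pld2, a phospholipase D known to associate with Aqp3 in keratinocytes, differed by -0.17. Gk, the glycerol kinase, was not analysed here.

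Genes that make or break down hydrogen peroxide, a second cargo of Aqp3 and Aqp8, were the next list. Of 14 measured genes 4 were called higher and none lower, beside 4.14% higher and 3.92% lower of all measured genes, with a median difference of 0.51. Gpx2, a glutathione peroxidase, differed by 1.81, with a log2 intensity of 7.96 in injured and 6.15 in uninjured epithelium. Duox1, a peroxide-producing oxidase of epithelial surfaces, had 8.87 in injured and 7.57 in uninjured epithelium, a difference of 1.30. Its maturation factor Duoxa1 differed by 0.98, just short of the threshold. Prdx4, a peroxiredoxin of the secretory pathway, differed by 1.16 and catalase, Cat, by 1.09. Peroxide-producing and peroxide-removing genes are both among the 4.

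Genes of the response to osmotic stress and cell swelling went both ways. Of 18 measured genes 3 were called higher and 3 lower, beside 8.06% of all measured genes in either direction, with a median difference of -0.03. Hspa4l, a chaperone first known as an osmotic stress protein of the mouse, differed by 2.36, with a log2 intensity of 9.19 in injured and 6.83 in uninjured epithelium. Stk39, a kinase that acts on chloride cotransporters, differed by 1.39. The volume-regulated anion channel subunits were unequal, with Lrrc8c at 1.33, Lrrc8b at -1.07 and the obligatory subunit Lrrc8a at 0.46. The taurine transporter Slc6a6 differed by -1.30 and the sodium, potassium and chloride cotransporter Slc12a2 by -1.28. Nfat5, the transcription factor of the hypertonic response, differed by -0.33 and Trpv4, a channel that opens on swelling, by 0.48.

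Genes of ion and fluid transport also went both ways, with 3 of 14 measured genes called higher, 2 lower and a median of -0.00132, beside the same 8.06%. The anion exchanger Slc26a4 differed by 2.54, with a log2 intensity of 7.63 in injured and 5.09 in uninjured epithelium. The uninjured value is under the low-signal level, so the size of that difference is uncertain. The calcium-activated chloride channel Ano1 differed by 1.87, the potassium channel Kcnk1 by 1.26, and the sodium channel subunit Scnn1a by -1.09. Cftr, the cyclic AMP-gated chloride channel, had 4.22 in injured and 3.88 in uninjured epithelium, both under the low-signal level. Slc12a2 belongs to this list too.

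Proteins that anchor aquaporins or carry them to the membrane gave no call among 9 measured genes, with a median difference of -0.38. With 8.06% of all measured genes called, 0 of 9 is near the background. Ezr, the ezrin that ties membrane proteins to actin, had a log2 intensity of 10.85 in injured and 11.71 in uninjured epithelium, a difference of -0.85. Utrn, a dystrophin relative, differed by -0.96 and the syntrophin Sntb1 by -0.91, each short of 2-fold. The positive differences of this list were Sntb2 at 0.43, Dag1 at 0.19 and Vta1 at 0.05. Rab11a, a small GTPase of recycling vesicles, differed by -0.27.

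**Figure D5:**
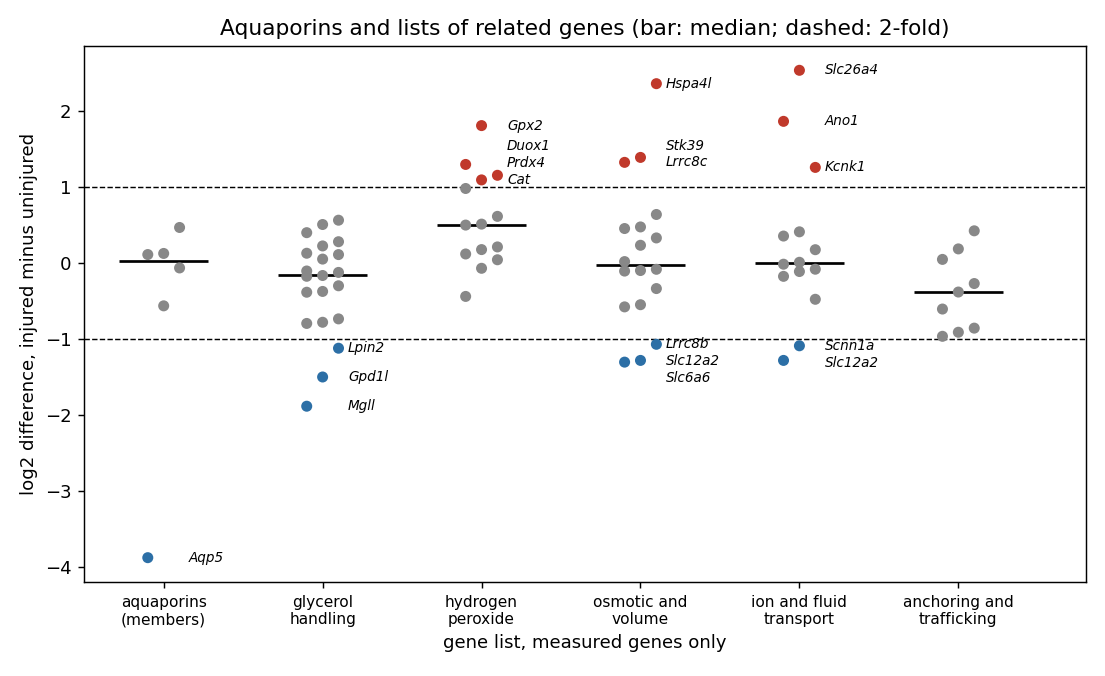
Log2 difference, injured minus uninjured (vertical axis), of the measured aquaporin members and of 5 lists of related genes (horizontal axis), 1 point per gene, with the list median as a bar and the 2-fold limits dashed. Genes past 2-fold are named. Aqp5 at -3.87 is lower than every gene of the 5 lists, among which Mgll at -1.88 is the lowest.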

How the data were processed

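The authors deposited 1 table of log2 intensities with 65952 rows and a column for each of 2 arrays. Per the labels' protocols, 2 µg of RNA was amplified and labelled with biotin, and the submitters' processing notes name Agilent Feature Extraction 9.1. Row identifiers look like transcript clusters. Background correction, row summary, genome build and normalization were not stated in any source used. No detection or saturation call was used. Column medians differed by 0.0135 and 75th percentiles by 0.00513, so values were kept as deposited.

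Rows were named from the platform annotation with symbols updated through RefSeq (GRCm38.p6): 31254 rows had 1 gene, 1492 several and 33206 none here. For a gene with several rows, the row with the highest mean stood for it. The named genes were all members and other family genes, up to 4 called genes by size per list, the 3 genes nearest to a called member, and genomic neighbours. Pax6, Krt5, Krt14, Krt13, Krt4, Duoxa1, Lrrc8b, Lrrc8a, Nfat5, Trpv4, Scnn1a, Cftr, Gpd2, Pld2, Gk, Ezr, Utrn, Sntb1, Rab11a, Kera, Lum, Adipoq, Cd14, Lyz2, Cd68, Csf1r, Slc1a3 and the genes beyond Aqp2 and Aqp6 lie outside it and, like the 5 promoter motifs, were chosen after values or letters were seen. Gfap, Rlbp1, Spdef, Agr2, Sntb2, Dag1, Vta1, Col1a1, Col1a2, Ptgds, Angptl7, Slc4a11 and Col8a2 also lie outside that rule and were added after values were seen. Members and lists were chosen with earlier results of these data known. Python 3.11.15 with pandas 2.3.3 and statsmodels 0.14.6 was used. The calling step was tested on simulated data with planted differences larger than the threshold. That checks the code and not how reliable a call is.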

Additional observations from a re-analysis of the deposited data

How the results depend on the processing

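Shifting the arrays to equal medians or to equal 75th percentiles, quantile normalization, removing a loess trend with a span of 0.3, and adding a constant of 20.9 before the log2 step left Aqp5 between -3.89 and -3.78, Aqp3 between -0.58 and -0.54 and Aqp4 between 0.36 and 0.47. No member changed the sign of its difference under these 5 alternatives. The filter and the choice of row cannot alter a member's difference, because each member has 1 row, and were not run for it. Under all 12 alternatives Aqp5 was the 1 member called, always lower. With the filter at the 75th percentile of the table only Aqp3 and Aqp5 remained, and the median of the members was -2.22, a value set by which members were left. That median was -0.0157 after the loess step and 0.06 with no filter, in place of 0.03, so its sign is not settled. At 1.5-fold 27 of the 75 measured genes of the 5 lists were past the threshold and at 4-fold 2, in place of 17. Over all measured genes 2172 were higher and 1711 lower at 1.5-fold, and 138 higher and 153 lower at 4-fold, against 807 and 765 at 2-fold. Other row choices, no filter and a filter at the 25th percentile kept the member count and the list count within 1.5 times. No paired analysis was possible because each group has 1 array. The number of arrays limits every comparison, and signal near the low-signal level limits 6 of the 8 members.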

Other observations

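Gene neighbours of the other aquaporins were read in RefSeq gene order. The nearest named gene after Aqp4, with 1 gene between them, is Chst9, a sulfotransferase that acts on N-acetylgalactosamine. It had a log2 intensity of 5.58 in injured and 8.83 in uninjured epithelium, a difference of -3.25, while Aqp4 stood at 0.47. Next to Aqp3 is Nol6, a nucleolar protein of ribosome assembly, which differed by 0.75 where Aqp3 differed by -0.56. Next to Aqp11 is Clns1a, which encodes a chaperone of spliceosome assembly first studied in chloride currents of swollen cells, with 8.94 in injured and 8.20 in uninjured epithelium. Neither Nol6 nor Clns1a was called. The other measured neighbours of members named here were not called. Ghrhr, next to Aqp1, differed by 0.02 and Lcmt1, next to Aqp8, by -0.19. Mindy4, with 1 gene between it and Aqp1, differed by -0.07. The pseudogene Mrpl27-ps, with 5 genes between it and Aqp4, differed by 0.32. The pseudogene Gm3436, with 6 genes between it and Aqp9, differed by 0.40.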
